A study of Mus musculus with 12 samples.

Results

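The mitosis genes described here are 38 genes chosen by name for their roles in cell division, and all 38 were found among the 54345 genes of the expression table. They comprise 9 genes of mitotic entry, 8 of the spindle checkpoint and the anaphase switch, 9 of the centromere, kinetochore and chromosomal passenger complex, 6 of the spindle, 5 of the central spindle and cytokinesis, and Mki67, which encodes the proliferation marker Ki-67. Messenger RNA was sequenced from H9c2(2-1) cells, a line labelled as wild type and as myoblast, in 12 libraries of 4 groups with 3 libraries each. The cells were left untreated (Unt), or received doxorubicin (DOX), doxorubicin with dexrazoxane (D_DXZ) or doxorubicin with MgHCF nanocatalysts (D_MgHCF), each for 6 h. MgHCF is a magnesium hexacyanoferrate of the Prussian blue family, made by the study to bind ferrous iron. All 3 treated groups therefore contained doxorubicin, and no group received dexrazoxane or MgHCF alone. Doxorubicin is an anthracycline that traps DNA topoisomerase II on broken DNA, and dexrazoxane is an iron-chelating topoisomerase II inhibitor given against its cardiac toxicity. The labels do not state whether the 3 libraries of a group came from separate cultures, so p-values measure only the spread between these libraries.

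A cell enters mitosis when cyclin B activates the kinase Cdk1, with Plk1 and Aurora A as further entry kinases. Kinetochores then attach the chromosomes to spindle microtubules, and the spindle checkpoint holds back the anaphase-promoting complex until every chromosome is attached. Cyclins and securin are then degraded, the chromatids separate and a contractile ring divides the cell. The transcripts of most of these genes are made in G2 and mitosis, under the MuvB complexes, B-Myb and Foxm1, so in cycling cultures their summed level moves with the number of cells in these phases. In bulk RNA, fewer cells in G2 and mitosis and less RNA per cell cannot be told apart.

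The deposited values are FPKM (fragments per kilobase of gene length per 1000000 reads), and differences are given on the log2(FPKM + 1) scale with their SE from limma. A gene was called at a Benjamini-Hochberg adjusted p under 0.05 over all 25044 genes tested, of which all 38 mitosis genes were part. The table held 16626514 to 19365119 reads on genes per library, and a mitosis gene had between 16 (Nek2) and 10159 (Mki67) of them. Among D_MgHCF libraries, replicate 3 stood apart, with Pearson correlations of log2(FPKM + 1) of 0.957 and 0.974 with replicates 1 and 2, while no pair within another group was under 0.991. Of 8 skeletal myoblast markers, the defining factors Myod1, Myf5, Myog and Pax7 did not exceed an FPKM of 0.126 in any library, while Des (1.36 to 1.57 in Unt) and Cdh15 (1.04 in D_MgHCF replicate 3) exceeded 1. Of the 8 cardiomyocyte markers only Gata4 exceeded 1. The defining factors of the labelled cell type were thus at or near 0. The summed FPKM of 6 fibroblast markers in Unt was 56.8 to 64.4, in DOX 105 to 131, in D_DXZ 84.8 to 110.3 and in D_MgHCF 32.9 to 48.3, and the part of this in the results below was not tested. Its members did not move alike, as Col1a1 (means of 20.0 in Unt, 70.6 in DOX and 23.7 in D_MgHCF) and Col1a2 (27.8, 37.8 and 4.54) made up most of the sum, while Pdgfrb was at 12.2, 8.35 and 10.9 and Pdgfra at 0.718, 0.352 and 0.537. The study describes H9c2 as rat cells, whereas the labels give mouse and the table lists mouse genes, so levels depend on how rat reads aligned to each mouse gene.

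The scale of the libraries bears on many of the directions given here. The authors' FPKM carry a median-ratio scaling, by which a read was worth more in DOX than in Unt. The product of FPKM and gene length per read in Unt was 39.7 to 41.7, in DOX 65.9 to 86.4, in D_DXZ 61.9 to 76.3 and in D_MgHCF 39.3 to 47.6. The 1000 genes with the most reads took a larger part of the reads in DOX (64.8% to 67.4%) and D_DXZ (61.8% to 65.5%) than in Unt (44.3% to 45.5%), with D_MgHCF at 43.5% to 51.3%. When FPKM were rescaled to equal totals (TPM), the median difference between DOX and Unt of the 12434 genes with FPKM of at least 1 in 3 libraries moved from 0.02 to -1.01. Ratios between genes within a library do not depend on this scale.

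As a share of all reads on genes, which depends on the total of each library, the 38 mitosis genes were lower in DOX than in Unt. They summed to 5833, 5477 and 5223 RPM (reads per 1000000 reads on genes) in the 3 Unt libraries. The sums were 2421, 2375 and 2347 in DOX, 3077, 2286 and 2581 in D_DXZ, and 3899, 5020 and 4067 in D_MgHCF. Each Unt library thus lay above each treated library, and the D_MgHCF libraries lay between those of Unt and of the other treated groups. For comparison, 40 genes of S phase summed to 6934 to 7081 RPM in Unt, 5723 to 5803 in DOX and 4639 to 5006 in D_MgHCF, where they were lowest. Their summed FPKM were higher in DOX (1769 to 2132) than in Unt (1300 to 1355), and again lowest in D_MgHCF (944 to 998).

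The 9 entry genes held 1340 to 1343 RPM in Unt. In DOX they held 328 to 379, in D_DXZ 377 to 513 and in D_MgHCF 976 to 1247. The 8 checkpoint and anaphase genes differed less, with 985 to 1009 in Unt, against 555 to 573 in DOX, 471 to 621 in D_DXZ and a D_MgHCF range of 703 to 946. Centromere and kinetochore genes were at 1005 to 1131 in Unt and 446 to 494 in DOX, and at 971 to 1376 in D_MgHCF, where they overlapped Unt. Genes of the central spindle and cytokinesis were at 915 to 1049 in Unt, 508 to 551 in DOX and 516 to 660 in D_MgHCF, so their D_MgHCF libraries stayed below Unt. In summed FPKM, DOX lay below Unt for the entry genes (156 to 164 against 277 to 293) and the centromere and kinetochore genes (138 to 150 against 181.8 to 190.5). The checkpoint genes (205 to 248 against 206 to 219) and the cytokinesis genes (93.5 to 122.5 against 102 to 110) overlapped Unt in DOX.

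**Figure D1:**
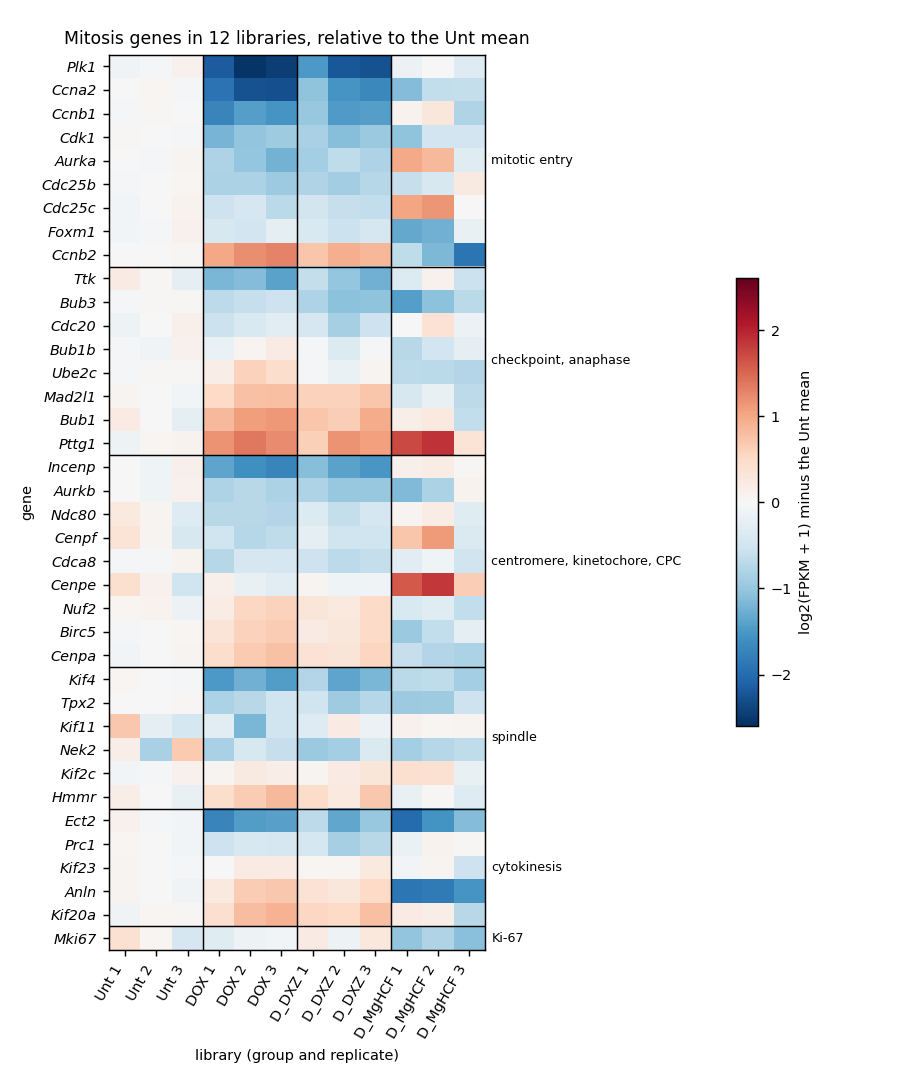
Level of the 38 mitosis genes in each library, as log2(FPKM + 1) minus the mean of the 3 Unt libraries (colour). Columns are libraries, rows are genes grouped by role (CPC, chromosomal passenger complex) and ordered by the DOX difference. Plk1, Ccna2, Ccnb1 and Incenp are below Unt in all DOX and D_DXZ libraries and Ccnb2 above, and D_MgHCF replicate 3 differs from replicates 1 and 2 in genes such as Aurka, Pttg1 and Cenpe.

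With doxorubicin alone, the mitosis genes did not move as a block in the deposited FPKM. Of the 38, 16 were lower and 11 higher in DOX than in Unt, and 11 were not called. Over all genes tested, 19.9% were called lower and 18.6% higher, and among the 12434 better expressed genes 33.4% and 34.9%. The mitosis genes were thus called lower in 42.1% and higher in 28.9%. Their median difference was -0.50, against 0 over all genes tested. Of the 11 higher genes, none was called higher under TPM scaling, under which 35 of the 38 were lower and none higher, and 2 were called higher under quantile normalization. Relative to the shifted median of the better expressed genes under TPM scaling, 11 mitosis genes lay above and 27 below.

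**Figure D2:**
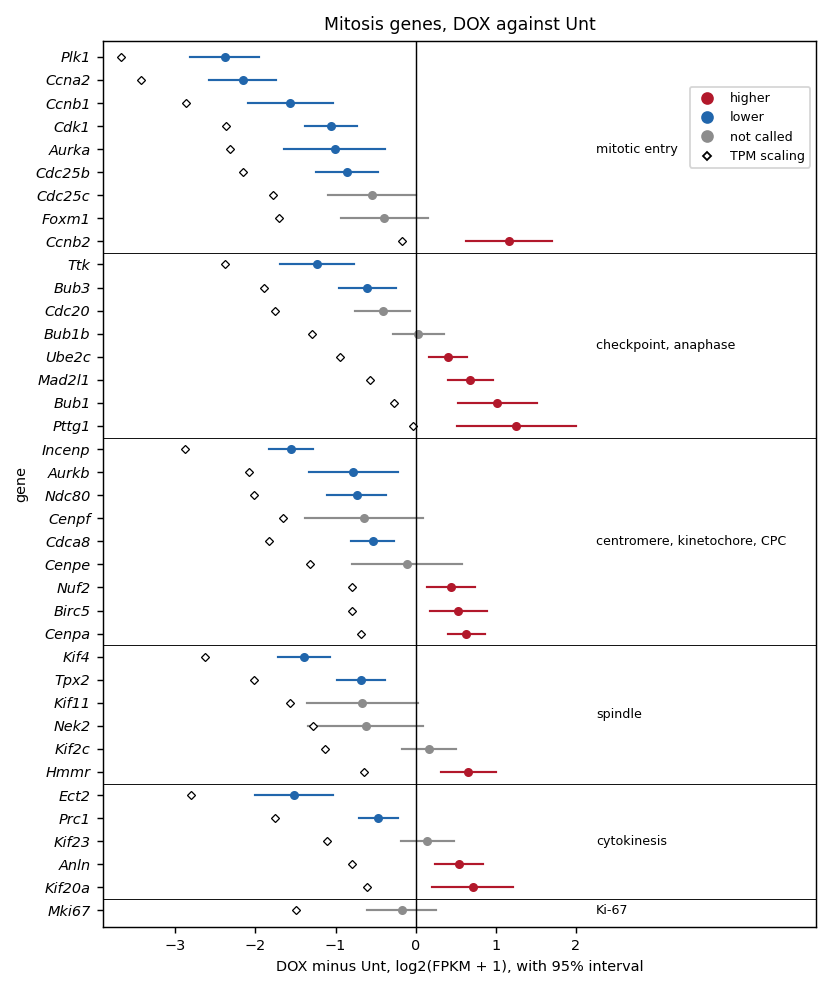
Difference between DOX and Unt of each mitosis gene on the log2(FPKM + 1) scale (filled points, bars are 95% intervals; colour gives the call) and the same difference under TPM scaling (open diamonds). In the deposited FPKM the genes spread from -2.38 for Plk1 to 1.25 for Pttg1, and under TPM scaling all 38 differences lie below 0.

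Among the entry genes, 6 of 9 fell in DOX and 1, Ccnb2, was called higher. Plk1, the polo-like kinase that drives entry and spindle assembly, had FPKM of 50.8, 53.4 and 59.0 in Unt and 11.4, 8.51 and 9.12 in DOX. It fell by 2.38 ± 0.19 (SE) on the log2 scale (limma, adjusted p = 1.28e-05), the furthest of the 38 genes. Ccna2, cyclin A2 of S phase and early mitosis, was at 37.4, 38.1 and 35.5 in Unt and at 9.03, 6.85 and 6.80 in DOX, and fell by 2.16 ± 0.19. Ccnb1, the main mitotic cyclin, was at 37.1, 38.8 and 37.9 in Unt and at 10.8, 13.4 and 12.4 in DOX, and fell by 1.57 ± 0.24. The lowest Unt library of each of these genes lay above the highest DOX library. Its partner kinase Cdk1 fell by 1.06 ± 0.15, Aurka (Aurora A) by 1.01 ± 0.28 and the activating phosphatase Cdc25b by 0.86 ± 0.17. For the phosphatase Cdc25c and the transcription factor Foxm1, the differences of -0.55 ± 0.25 and -0.39 ± 0.25 did not pass the test (limma, adjusted p = 0.113 and 0.277). In both genes each DOX library lay below each Unt library. Their SE also holds the spread within D_MgHCF, where Foxm1 was at 10.2, 11.0 and 23.9 FPKM and Cdc25c at 23.5, 25.6 and 10.9.

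Ccnb2, which encodes the cyclin B2 that also partners Cdk1, went the other way in FPKM. Its values were 24.7, 24.9 and 25.5 in Unt and 50.9, 59.2 and 62.7 in DOX, and it was called higher by 1.17 ± 0.24 (limma, adjusted p = 0.00279), while under TPM scaling the difference was -0.17. The ratio of Ccnb2 to Ccnb1 FPKM, which no factor applied to a whole library changes, was 0.666, 0.643 and 0.672 in the Unt libraries and 4.72, 4.40 and 5.08 in the DOX libraries. The ratio was 2.26, 3.73 and 3.46 in D_DXZ and 0.382, 0.228 and 0.273 in D_MgHCF. The 4 groups did not overlap in it, with DOX highest and D_MgHCF lowest. This ratio and the ratios given below were chosen with the values known and are given as a description. Ccnb1 reads are less certain than those of most members, because 5 pseudogenes (Ccnb1-ps, Gm12856, Gm4870, Gm7483 and Gm8416) share stretches with at least 95% identity with it.

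The promoters of 4 genes are shown. Plk1 fell furthest in DOX, Ccnb1 and Ccnb2 are the cyclin B genes that moved apart, and Anln is the gene furthest below Unt in D_MgHCF. They cover 250 bases before to 50 after the gene start in RefSeq's annotation of GRCm38.p6. Capitals mark the letters TTTGAA and TTTAAA, which are forms of the cell cycle genes homology region bound by MuvB complexes, and CCAAT, the site of NF-Y, each on either strand. The sequences are from the mouse reference and not from the cells sequenced. The window of Plk1 is chr7:122159185-122159484 on the plus strand. Those of Ccnb1, at chr13:100786437-100786736, of Ccnb2, at chr9:70421505-70421804, and of Anln, at chr9:22389157-22389456, are on the minus strand and are printed 5′ to 3′ along the gene.
Plk1: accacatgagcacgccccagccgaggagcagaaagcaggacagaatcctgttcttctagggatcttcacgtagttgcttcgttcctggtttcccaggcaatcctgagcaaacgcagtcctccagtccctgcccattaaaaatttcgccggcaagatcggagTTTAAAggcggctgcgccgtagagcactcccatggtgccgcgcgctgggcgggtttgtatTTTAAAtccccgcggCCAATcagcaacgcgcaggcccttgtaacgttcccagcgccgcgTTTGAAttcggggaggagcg
Ccnb1: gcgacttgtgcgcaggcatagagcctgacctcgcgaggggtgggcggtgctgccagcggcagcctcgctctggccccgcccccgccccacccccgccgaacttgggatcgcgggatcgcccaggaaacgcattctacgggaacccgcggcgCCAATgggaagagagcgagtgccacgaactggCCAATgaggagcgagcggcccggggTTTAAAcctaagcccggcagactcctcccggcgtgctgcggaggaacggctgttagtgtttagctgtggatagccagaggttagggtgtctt
Ccnb2: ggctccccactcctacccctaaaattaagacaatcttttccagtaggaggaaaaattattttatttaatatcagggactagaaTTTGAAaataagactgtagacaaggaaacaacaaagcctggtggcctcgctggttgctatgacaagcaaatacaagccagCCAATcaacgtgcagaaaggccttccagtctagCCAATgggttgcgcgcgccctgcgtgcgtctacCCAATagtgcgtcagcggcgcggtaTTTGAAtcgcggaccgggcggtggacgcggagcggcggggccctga
Anln: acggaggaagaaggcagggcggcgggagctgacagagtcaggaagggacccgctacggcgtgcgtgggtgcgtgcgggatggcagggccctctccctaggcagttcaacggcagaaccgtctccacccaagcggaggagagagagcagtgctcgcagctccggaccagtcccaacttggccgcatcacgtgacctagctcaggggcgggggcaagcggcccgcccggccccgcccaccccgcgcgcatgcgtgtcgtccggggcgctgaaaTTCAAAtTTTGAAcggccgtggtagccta

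All 4 windows hold at least 1 of the letters searched, whether the gene fell in DOX (Plk1, Ccnb1) or was called higher in FPKM (Ccnb2, Anln). The windows of Mad2l1, Nuf2 and Pttg1 held none of the 3. Promoter windows were matched by symbol for 31 of the 38 genes, as 34 windows because some genes have several starts. The genes without a window were Ccna2, Kif20a, Aurkb, Incenp, Tpx2, Foxm1 and Cdc25c. On either strand, 25 of the 34 windows (73.5%) held TTTGAA, compared with 17.9% of all 32851 windows in the table. CCAAT was found in 27 (79.4%), compared with 37.4% of all windows, and at least 2 copies in 19 (55.9%), compared with 11.7%. Both TTTGAA and CCAAT were found in 22 windows (64.7%), compared with 6.95%. TTTAAA was found in 9 (26.5%), compared with 13.2%. The median GC content was 59% in these windows and 52.7% in all windows. Split by the DOX call, TTTGAA was in 13 of 15 windows of the 12 genes that fell, in 5 of 10 of the 10 genes called higher and in 7 of 9 of the 9 others, and CCAAT was in 14, 5 and 8 of them. Bub3, Ect2 and Prc1, which fell, have overlapping windows that all hold TTTGAA and CCAAT, so these genes count more than once. A match is only a match of letters, and no test was made of it.

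**Figure D3:**
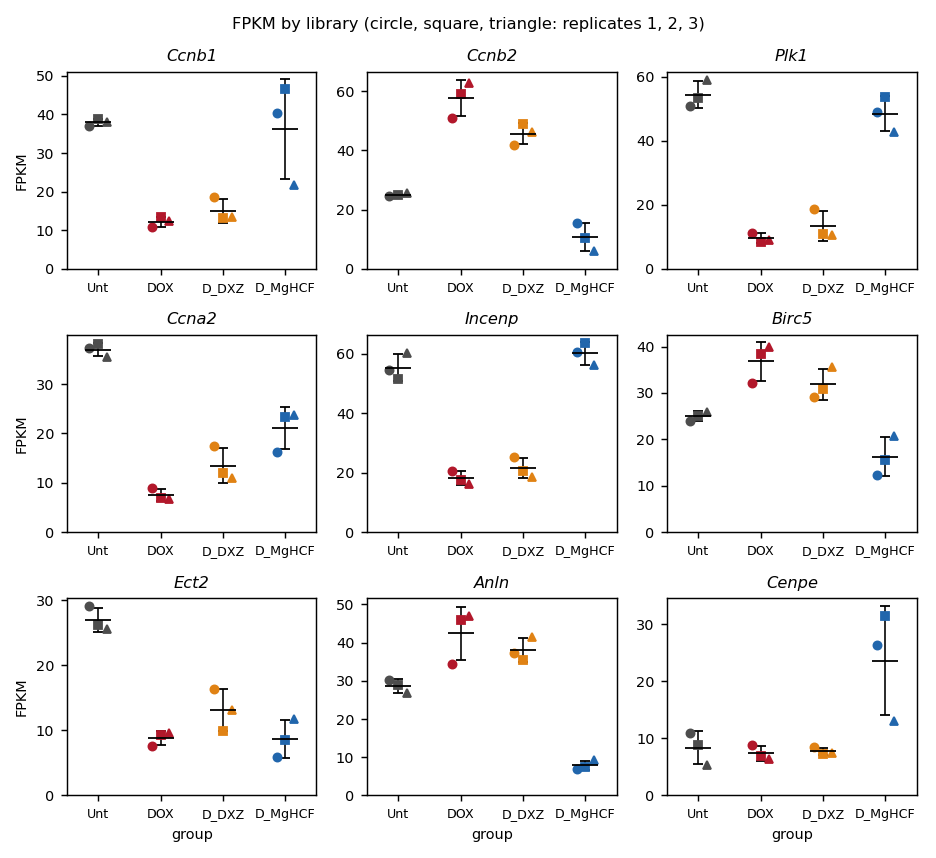
FPKM of 9 mitosis genes in each library (points) with the mean and SD of the 3 libraries of each group (bars). Ccnb1, Plk1 and Incenp are low in DOX and D_DXZ, Ccnb2, Birc5 and Anln are high there, and D_MgHCF lies near Unt for Plk1 and Incenp but below Unt for Ccnb2, Ect2 and Anln.

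The checkpoint and anaphase genes were divided, with 2 of 8 lower and 4 higher in DOX in FPKM, although none of the 4 was higher under TPM scaling. Ttk, the kinase Mps1 that starts checkpoint signalling, was at 10.6, 9.22 and 7.39 in Unt and at 3.39, 3.58 and 2.83 in DOX, and fell by 1.23 ± 0.21. Bub3, a scaffold of the checkpoint complex, fell by 0.60 ± 0.16. The genes called higher were Pttg1, which encodes the separase inhibitor securin (1.25 ± 0.33), the checkpoint kinase Bub1 (1.02 ± 0.22), Mad2l1, the Mad2 protein that holds Cdc20 inactive (0.68 ± 0.12), and Ube2c, the ubiquitin-conjugating enzyme of the anaphase-promoting complex (0.40 ± 0.11). Bub1b, the BubR1 protein, differed by 0.03 ± 0.14, and Cdc20, the activator of the anaphase-promoting complex, by -0.41 ± 0.15, and neither passed the test. The ratio of Mad2l1 to Ttk FPKM was 0.843, 0.924 and 1.09 in Unt, 3.69, 4.19 and 5.44 in DOX, 2.45, 3.36 and 4.57 in D_DXZ and 0.905, 0.751 and 0.863 in D_MgHCF. In this ratio D_MgHCF overlapped Unt, and D_DXZ overlapped DOX.

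Of the 9 centromere and kinetochore genes, 4 fell and 3 were called higher in FPKM in DOX, with none of the 3 higher under TPM scaling. The chromosomal passenger complex, in which Incenp and the adaptors Birc5 (survivin) and Cdca8 (borealin) place the kinase Aurkb, was itself divided. Incenp was at 54.5, 51.4 and 60.2 in Unt and at 20.7, 17.7 and 16.2 in DOX, and fell by 1.56 ± 0.12 (limma, adjusted p = 1.23e-05). Aurkb fell by 0.78 ± 0.25 and Cdca8 by 0.54 ± 0.12. Birc5, however, was at 24.0, 25.1 and 26.0 in Unt and at 32.0, 38.5 and 39.9 in DOX, a difference of 0.53 ± 0.16 in FPKM and of -0.79 under TPM scaling. The ratio of Birc5 to Incenp FPKM was 0.440, 0.488 and 0.431 in Unt and 1.55, 2.18 and 2.46 in DOX, with no overlap.

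The outer kinetochore gave a further contrast. Ndc80 and Nuf2 encode partners in the complex that binds microtubules, and Ndc80 fell by 0.74 ± 0.16 while Nuf2 was called higher by 0.44 ± 0.13 in FPKM. Cenpa, the centromeric histone H3 variant, was called higher by 0.63 ± 0.10. Both Nuf2 and Cenpa were lower under TPM scaling, by differences of -0.79 and -0.69. The kinetochore motor Cenpe (-0.11 ± 0.31) and Cenpf (-0.64 ± 0.33) were not called. These genes also varied within Unt, in which the highest library exceeded the lowest 2.08-fold for Cenpe and 2.00-fold for Cenpf.

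Among the spindle genes, the chromokinesin Kif4 fell in DOX by 1.40 ± 0.15 and Tpx2, which activates Aurora A on microtubules, by 0.69 ± 0.13. Hmmr, a spindle pole protein, was called higher by 0.66 ± 0.15 in FPKM, with a difference of -0.64 under TPM scaling. Kif2c, a microtubule-depolymerising kinesin, differed by 0.16 ± 0.15 and was not called. Kif11, the bipolar spindle kinesin, and Nek2, a centrosome kinase, were the lowest genes of the set, at 1.77 to 5.16 and 0.333 to 2.80 FPKM in Unt, and their differences of -0.67 ± 0.31 and -0.63 ± 0.32 did not pass the test.

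In the cytokinesis genes, Ect2 and Anln moved apart. Ect2, the exchange factor that activates RhoA at the division site, was at 29.1, 26.2 and 25.6 in Unt and at 7.55, 9.22 and 9.52 in DOX, and fell by 1.52 ± 0.22. Anln encodes anillin, the scaffold of the contractile ring on which RhoA acts, and was at 30.2, 29.0 and 26.7 in Unt and at 34.4, 45.8 and 47.1 in DOX. It was called higher by 0.54 ± 0.14 in FPKM, and its difference was -0.79 under TPM scaling. The ratio of Anln to Ect2 FPKM was 1.04, 1.11 and 1.04 in Unt and 4.56, 4.97 and 4.95 in DOX. Prc1, which bundles the central spindle, fell by 0.47 ± 0.11, Kif20a was called higher by 0.71 ± 0.23 in FPKM, with -0.61 under TPM scaling, and Kif23 differed by 0.15 ± 0.15. Mki67 differed by -0.17 ± 0.19, and its FPKM in Unt ranged from 22.2 to 40.1, wider than the 24.3 to 28.9 of DOX.

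The differences between DOX and Unt had no marked relation to the length of the 38 genes and a weak negative one to their Unt level. Their Pearson correlation with the log2 gene length was 0.046, with the log2 genomic span -0.083 and with the log2 Unt FPKM -0.245 (Spearman 0.126, -0.081 and -0.343), across genes that share the same 6 libraries and are not replicates. The calls least secure to the choice of libraries were those of Aurkb and Kif20a. The call of Aurkb was lost with any 1 of the 6 Unt and DOX libraries left out, and that of Kif20a with 5 of them. Both calls were kept in the fit of only DOX and Unt. Aurkb was at 24.9 to 29.5 FPKM in Unt and 14.9 to 16.1 in DOX. It ranged from 11.7 to 29.1 in D_MgHCF, which enters the shared estimate of the spread. Without DOX replicate 2 the genes called higher numbered 7 instead of 11.

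With dexrazoxane added to doxorubicin, 5 of the 9 entry genes were lower than in Unt, 1 (Ccnb2) was higher in FPKM and 3 (Aurka, Cdc25c and Foxm1) were not called. In D_DXZ against Unt, a comparison that uses the same Unt libraries, 15 of 38 were lower and 6 higher, while 18% and 15.9% of all genes tested were. Among the better expressed genes, 31.4% were lower and 30.2% higher. Plk1 fell by 1.98 ± 0.19, Ccna2 by 1.42 ± 0.19 and Incenp by 1.33 ± 0.12, and the genes called higher in FPKM were Ccnb2 (0.84 ± 0.24), Bub1 (0.77 ± 0.22), Mad2l1 (0.64 ± 0.12), Hmmr (0.47 ± 0.15), Cenpa (0.42 ± 0.10) and Anln (0.40 ± 0.14). Under TPM scaling none was higher and 35 were lower, beside 3.66% higher and 39.6% lower of all genes tested. The median of the better expressed genes was then -0.95. The count of higher genes was 2 without Unt replicate 2, without Unt replicate 3 or without D_DXZ replicate 3, and 10 without D_MgHCF replicate 3, which enters only through the shared estimate of the spread.

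Set directly against DOX, no mitosis gene was called in D_DXZ, and 0% of all genes tested were called in either direction by limma. At an unadjusted p under 0.05 there were 4 mitosis genes and 2388 genes in all, and voom on the recovered reads called no mitosis gene either. Ccna2 was at 17.4, 12.1 and 10.9 FPKM in D_DXZ, above the 6.80 to 9.03 of DOX and below Unt, a difference from DOX of 0.74 (95% interval 0.32 to 1.16; limma, unadjusted p = 0.00263, adjusted p = 0.278). Ube2c was at 48.4, 44.0 and 52.2 in D_DXZ and at 56.0, 75.5 and 68.5 in DOX, a difference of -0.45 (95% interval -0.69 to -0.21; limma, adjusted p = 0.255). Ect2 differed by 0.52 and Bub3 by -0.37. For Plk1 the interval of the difference was -0.03 to 0.83, for Ccnb1 -0.26 to 0.80 and for Ccnb2 -0.87 to 0.21, so the absence of a call does not show that D_DXZ and DOX acted alike. D_DXZ replicate 1 was the library nearest to Unt for Plk1 (18.7 FPKM, against 11.0 and 10.5 in replicates 2 and 3), Ccnb1 (18.5, 13.1 and 13.4) and Ect2 (16.4, 9.93 and 13.2).

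**Figure D4:**
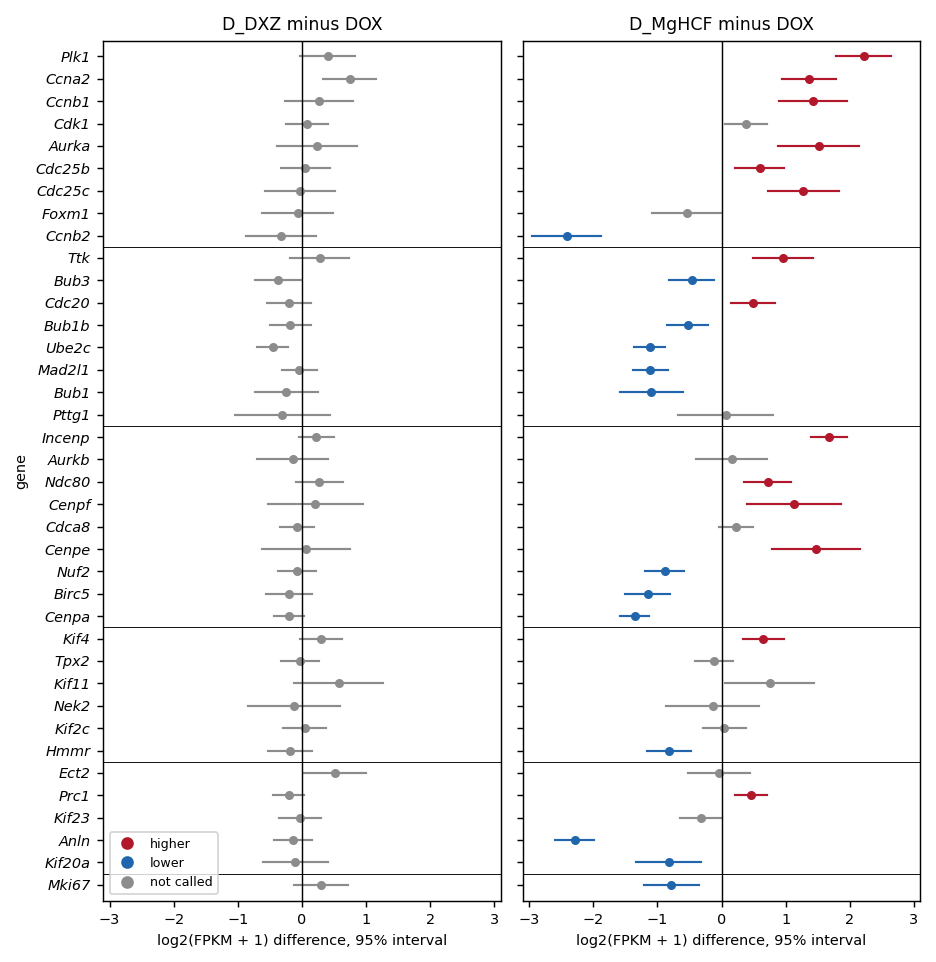
Difference of D_DXZ (left) and D_MgHCF (right) from the same 3 DOX libraries for each mitosis gene on the log2(FPKM + 1) scale, with 95% intervals; colour gives the call. No gene is called on the left, while 14 are higher and 13 lower on the right, from -2.41 for Ccnb2 to 2.22 for Plk1.

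MgHCF together with doxorubicin gave another profile. Against DOX, 14 of the 38 genes were higher and 13 lower, while 31.4% and 20.1% of all genes tested were, and 34.0% and 38.1% of the better expressed ones. The median difference was 0.06. Under TPM scaling, which moved the median of the better expressed genes to 0.87, 25 genes were higher and 2 lower, and the 2 were Ccnb2 and Anln. D_MgHCF and DOX are compared here with the same DOX libraries that entered the comparison with Unt, so a chance deviation of DOX would enter both with opposite sign.

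The entry genes were higher than in DOX in 6 of 9 cases. Plk1 was at 48.9, 53.8 and 42.9 FPKM in D_MgHCF, a rise of 2.22 ± 0.19 over DOX (limma, adjusted p = 1.17e-05). Ccnb1 was at 40.2, 46.6 and 21.8 and rose by 1.43 ± 0.24, Ccna2 at 16.3, 23.4 and 23.8 and rose by 1.36 ± 0.19, and Aurka at 62.2, 55.8 and 24.4 and rose by 1.51 ± 0.28. Ccnb2 fell by 2.41 ± 0.24 from DOX, to 15.4, 10.6 and 5.93, and its difference was -1.26 under TPM scaling. Thus Ccnb1 and Ccnb2 moved in opposite directions.

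In the other roles, Incenp rose by 1.68 ± 0.12 over DOX, Cenpe by 1.47 ± 0.31, Ttk by 0.96 ± 0.21 and Ndc80 by 0.72 ± 0.16, and these 4 were also higher under TPM scaling. In FPKM, Anln fell by 2.29 ± 0.14, Cenpa by 1.36 ± 0.10, Birc5 by 1.15 ± 0.16, Ube2c by 1.12 ± 0.11, Mad2l1 by 1.11 ± 0.12 and Bub1 by 1.10 ± 0.22. Of these 6, Anln alone was called lower under TPM scaling (-1.15), and Birc5, Ube2c and Bub1 then differed by 0.02, 0.07 and 0.05. Ect2, at 5.96, 8.45 and 11.8 FPKM, overlapped the 7.55 to 9.52 of DOX and differed by -0.04 ± 0.22, with 1.05 under TPM scaling.

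Against Unt, the D_MgHCF libraries had 16 lower and 3 higher mitosis genes, where 15.7% and 24.3% of all genes tested were called, and 28.2% and 22.7% of the better expressed ones. This comparison depended little on the scale, as TPM scaling gave 17 lower and 2 higher, quantile normalization 15 and 3, and scaling by the summed reads 16 and 3. The deepest falls were those of Anln (1.75 ± 0.14), from 26.7 to 30.2 FPKM in Unt to 6.99, 7.33 and 9.19 in D_MgHCF, and of Ect2 (1.57 ± 0.22), so both genes of the RhoA ring step were below Unt. Ccnb2 fell by 1.25 ± 0.24, Bub3 by 1.07 ± 0.16, Mki67 by 0.96 ± 0.19, Foxm1 by 0.93 ± 0.25, Tpx2 by 0.81 ± 0.13 and Ccna2 by 0.80 ± 0.19. Plk1 (-0.16 ± 0.19), Ccnb1 (-0.13 ± 0.24), Incenp (0.12 ± 0.12) and Prc1 (-0.01 ± 0.11) were not called.

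The 3 genes above Unt were Cenpe (1.36 ± 0.31), Pttg1 (1.32 ± 0.33) and Cdc25c (0.73 ± 0.25), and they also separated D_MgHCF replicate 3 from replicates 1 and 2. Cenpe was at 26.3, 31.5 and 13.1 FPKM in D_MgHCF, against 5.28 to 11.0 in Unt. Pttg1 was at 34.4, 38.7 and 12.7, against 8.76 to 10.4. Cdc25c was at 23.5, 25.6 and 10.9, so that replicate 3 lay within the 10.3 to 11.7 of Unt, and its call was lost under 14 of 22 alternatives. The calls of Cenpe and Pttg1 were lost under 1, the fit of only D_MgHCF and Unt, which left no mitosis gene higher. Without D_MgHCF replicate 3, 6 genes were higher and 18 lower than in Unt, and Aurka (0.92) and Cenpf (0.91) were among the higher ones. The ratio of Aurka to Aurkb FPKM, the Aurora kinases of the spindle pole and of the centromere, was 1.10 to 1.18 in Unt and 0.843 to 1.14 in DOX, and it was 5.30, 3.73 and 0.838 in D_MgHCF replicates 1, 2 and 3. This ratio does not depend on the scale, and replicate 3 lay on the other side of the Unt range from replicates 1 and 2.

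Between the co-treatments, D_MgHCF had 13 of the 38 genes above D_DXZ and 11 below, while 29.4% and 19% of all genes tested were. For the better expressed genes the shares were 30.762% higher and 35.998% lower. The largest rises were those of Plk1 (1.82 ± 0.19), Incenp (1.45 ± 0.12) and Cenpe (1.41 ± 0.31), and the largest falls in FPKM those of Anln (2.15 ± 0.14), Ccnb2 (2.09 ± 0.24) and Cenpa (1.15 ± 0.10). Under TPM scaling 25 were higher and 2, Anln and Ccnb2, lower, and Cenpa was no longer called. Of all genes tested, 50.5% were then higher and 6.14% lower, and the median of the better expressed genes was 0.73. The count of higher genes was 8 without D_DXZ replicate 2.

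**Figure D5:**
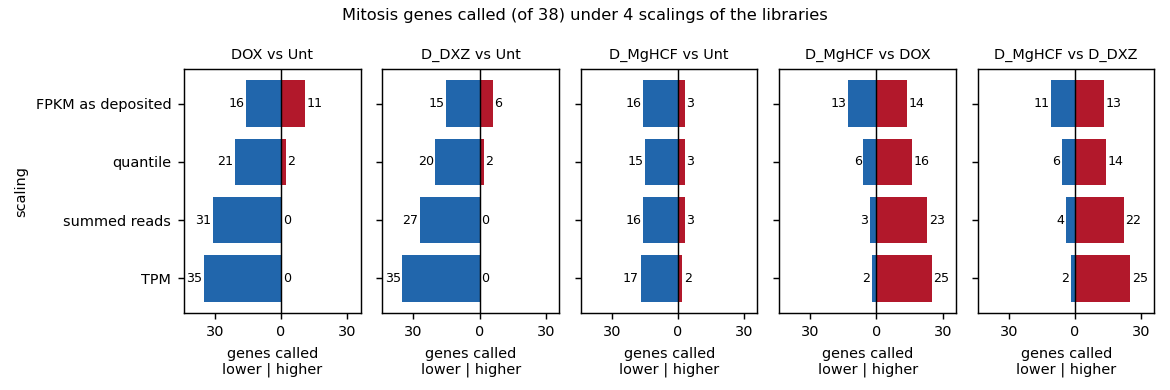
Number of the 38 mitosis genes called higher (to the right, red) and lower (to the left, blue) in each comparison with FPKM as deposited, after quantile normalization, with FPKM over the summed reads and with TPM. The D_MgHCF against Unt counts stay between 15 and 17 lower and 2 and 3 higher, while the 11 genes called higher in DOX against Unt become 2 or 0.

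Other genes of mitosis, listed by name but with earlier results of these data known, were also divided in DOX in FPKM. Those named here are the called genes that rose or fell furthest in each list. Of 21 further genes of mitotic entry and the MuvB complexes, 12 were lower and 5 higher than in Unt. Wee1, the kinase that inhibits Cdk1, fell by 2.85 ± 0.34 and Ccnf by 2.55 ± 0.38, while the Cdk1 subunit Cks1b (1.57 ± 0.19) and the E2F partner Tfdp1 (1.44 ± 0.17) were called higher. Of 16 genes of the anaphase-promoting complex and its regulators, 3 were lower and 6 higher. Its inhibitor Fbxo5 fell by 2.43 ± 0.44 and its activator Fzr1 by 2.23 ± 0.26, while the subunits Anapc13 (1.94 ± 0.21) and Anapc5 (1.64 ± 0.19) were called higher. Of 18 condensin and cohesin genes tested, 8 were lower and 4 higher, and Wapl, which releases cohesin, fell by 1.98 ± 0.26 and the centromeric cohesin protector Sgo1 by 1.61 ± 0.15. Smc1a (1.84 ± 0.30) and Smc2 (1.07 ± 0.17) were called higher. Of 38 further spindle, kinetochore and cytokinesis genes, 19 were lower and 12 higher, from the kinetochore gene Mis12 (-2.35 ± 0.26) and the kinesin Kif14 (-1.77 ± 0.16) to Zwint (1.80 ± 0.17) and Cenpw (1.41 ± 0.12). Of the 40 S phase genes, 16 were higher and 9 lower, with a median of 0.19. These counts are to be read against the 18.6% higher and 19.9% lower of all genes tested (34.9% and 33.4% of the better expressed ones). For the anaphase-promoting complex the shares were 37.5% and 18.8%, and for S phase 40% and 22.5%. Their higher shares were nearer to that of the better expressed genes, and their lower shares nearer to that of all genes tested. Neither list was thus near the same background in both directions. Under TPM scaling, the higher and lower counts of these 5 lists were 0 and 17, 2 and 12, 0 and 16, 1 and 33, and 0 and 31. Of the genes named, Anapc13, Anapc5 and Zwint were then still called higher, Cks1b, Tfdp1, Smc1a, Smc2 and Cenpw were not called, and those that fell were still lower.

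In D_MgHCF against DOX, 11 of the 21 further entry genes were higher and 7 lower, with Wee1 (2.31 ± 0.34) and Ccnf (1.95 ± 0.38) rising and Tfdp1 (-2.32 ± 0.17) and Cks1b (-2.04 ± 0.19) falling. For the anaphase-promoting complex the counts were 3 higher and 10 lower, for condensin and cohesin 4 and 10, for the further spindle and kinetochore genes 12 and 12, and for the S phase genes 8 and 24, beside 31.4% higher and 20.1% lower of all genes tested. Among the better expressed genes, 34.0% were higher and 38.1% lower. Fbxo5 rose by 2.54 ± 0.44, Mis12 by 2.38 ± 0.26 and the kinesin Kif18b by 2.22 ± 0.31, and Cenpw fell by 1.68 ± 0.12. Under TPM scaling these named genes kept their calls, while the list counts became 16 and 3, 6 and 2, 9 and 1, 30 and 2, and 20 and 9. In D_MgHCF against Unt, the further entry genes were 1 higher and 7 lower, the anaphase-promoting complex 0 and 6, condensin and cohesin 0 and 9, the further spindle and kinetochore genes 3 and 13 and the S phase genes 4 and 22, beside 24.3% and 15.7% of all genes tested, with 0 and 8, 0 and 7, 0 and 10, 3 and 16, and 3 and 23 under TPM scaling. In FPKM as deposited, 22.7% of the better expressed genes were higher and 28.2% lower. The cytokinesis gene Racgap1, the partner of Ect2 at the central spindle, fell by 1.57 ± 0.26 from Unt, from 45.4 to 15.8 mean FPKM, and Tacc3, a spindle protein, rose by 0.98 ± 0.12. In D_DXZ against DOX no gene of these lists was called, with 3, 1, 3, 7 and 4 genes of the 5 lists at an unadjusted p under 0.05.

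Some members share sequence or position with other genes. In the annotation, 19 of the 38 overlap another gene, 4 of them (Anln, Foxm1, Ndc80 and Tpx2) on the same strand, and the counting with respect to strand is not given in the sources used here. Besides Ccnb1, near-identical copies elsewhere were found for 9 members, of which Cdc20, Mad2l1, Mki67, Ndc80 and Cenpe each matched 1 to 3 other listed genes and Birc5, Cenpa, Cenpf and Ube2c matched short stretches of unrelated genes. The reads of these genes are uncertain to that extent.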

How the data were processed

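RNA-seq covered 12 libraries of H9c2 cells, in 4 groups of 3 taken from their labels. Per the study's methods, poly(A) RNA went into NEBNext libraries that were read as 150 bp pairs. The submitters' processing notes name HISAT2 2.0.5 and GRCm38 (mm10), and the counting program, its strand setting and the doses in the sequenced cells are not given in the sources used here. The authors deposited FPKM of 54345 genes in a single table, with mouse Ensembl identifiers, gene lengths and coordinates. No sample column was left unused.

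In each library, 100% of the products of FPKM and gene length were whole multiples of the smallest step (tolerance 0.02 reads), which gave back the reads per gene, 16626514 to 19365119 per library. These totals set the precision of each value. The mitosis genes and the other lists were chosen with earlier results of these data known. All 38 mitosis genes could be named, together with the 2 genes of each other list that rose and the 2 that fell furthest, if called and with mean FPKM of 1 or more in the group where they were higher.

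Differences on log2(FPKM + 1) were tested, two-sided, with limma 3.58.1 in R 4.3.3, in 1 fit of all 4 groups with a mean-variance trend, for the 25044 genes that had FPKM above 0 in 3 or more libraries. Each gene thus had 1 estimate of its spread, shared by all 4 groups. The script was tested on simulated data. The pseudocount makes differences of low genes smaller. Genes with similar copies were found by aligning members to GENCODE M21 transcripts (BLAST 2.17.0, 150 bases or more with 95% identity or more). Promoters are RefSeq windows of GRCm38.p6. The alternatives were a pseudocount of 0.1, only genes reaching FPKM of 1, all genes, unadjusted p, only the 2 groups compared, a replicate block, TPM, quantile normalization, summed reads, voom, each library left out, and motifs on the gene strand only.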

Additional observations from a re-analysis of the deposited data

How the results depend on the processing

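Library scaling was the choice on which most directions depended. TPM scaling gave 0 higher and 35 lower mitosis genes in DOX against Unt (11 and 16 as reported), 0 and 35 in D_DXZ against Unt (6 and 15), 25 and 2 in D_MgHCF against DOX (14 and 13) and 25 and 2 in D_MgHCF against D_DXZ (13 and 11). Summed reads gave 0 and 31, 0 and 27, 23 and 3, and 22 and 4 in the same comparisons, and quantile normalization gave 2 higher genes in DOX and 2 in D_DXZ against Unt and 6 lower genes in D_MgHCF against DOX and 6 against D_DXZ. Among all genes tested, the share called higher and lower in DOX against Unt was 18.6% and 19.9% as deposited, 4.39% and 40.1% under TPM scaling and 8.29% and 33.2% by summed reads, and in D_MgHCF against DOX it was 31.4% and 20.1%, 53.2% and 6.70%, and 49.4% and 9.59%. D_MgHCF against Unt kept its counts within 1.5 times under all 3 scalings. For single genes, the log2 differences that changed sign were as follows, and the cause was not tested beyond the change of scale itself. With TPM scaling, DOX against Unt gave -0.17 for Ccnb2, -0.28 for Bub1, -1.30 for Bub1b, -0.57 for Mad2l1, -0.94 for Ube2c, -0.029 for Pttg1, -0.69 for Cenpa, -0.79 for Nuf2, -0.79 for Birc5, -1.13 for Kif2c, -0.64 for Hmmr, -0.61 for Kif20a, -1.11 for Kif23 and -0.79 for Anln. With TPM scaling, D_DXZ against Unt gave -0.45 for Mad2l1, -0.35 for Bub1, -0.32 for Ccnb2, -0.66 for Hmmr, -0.72 for Cenpa and -0.76 for Anln. Of all 38 differences in this comparison, 13 were above 0 as reported and 0 with TPM scaling. In D_MgHCF against D_DXZ, 20 were above 0 as reported and 33 with TPM scaling. With TPM scaling, D_MgHCF against DOX gave 0.054 for Bub1, 0.65 for Bub1b, 0.66 for Bub3, 0.075 for Ube2c, 0.18 for Nuf2, 0.016 for Birc5, 1.06 for Tpx2, 0.33 for Hmmr, 0.34 for Kif20a, 0.78 for Kif23, 1.05 for Ect2 and 0.38 for Mki67. With scaling by the summed reads, DOX against Unt gave -0.89 for Bub1b, -0.19 for Mad2l1, -0.53 for Ube2c, -0.28 for Cenpa, -0.41 for Nuf2, -0.39 for Birc5, -0.74 for Kif2c, -0.24 for Hmmr, -0.21 for Kif20a, -0.72 for Kif23 and -0.38 for Anln. With scaling by the summed reads, D_DXZ against Unt gave -0.056 for Mad2l1. With scaling by the summed reads, D_MgHCF against DOX gave 0.41 for Bub1b, 0.43 for Bub3, 0.82 for Tpx2, 0.091 for Hmmr, 0.10 for Kif20a, 0.56 for Kif23, 0.82 for Ect2 and 0.14 for Mki67. With quantile normalization, DOX against Unt gave -0.76 for Bub1b, -0.76 for Ube2c, -0.22 for Birc5 and -0.30 for Anln. With quantile normalization, D_MgHCF against DOX gave 0.14 for Bub1b and 0.68 for Tpx2.

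Other settings moved fewer counts. Without a filter, D_DXZ against Unt had 2 higher genes and D_MgHCF against D_DXZ had 8, with 54345 genes in the adjustment. Fits of the 2 groups compared gave 0 higher genes in D_MgHCF against Unt and 8 in D_MgHCF against D_DXZ, with fewer libraries in the spread. In DOX against Unt such a fit gave 11 higher and 19 lower genes. At an unadjusted p, D_DXZ against DOX had 2 higher and 2 lower genes. The pseudocount of 0.1, the filter at FPKM of at least 1 and voom moved no count by over 1.5 times.

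With each library left out in turn, the higher and lower counts ranged from 7 to 11 and from 14 to 20 in DOX against Unt, from 2 to 10 and from 15 to 19 in D_DXZ against Unt, from 2 to 6 and from 13 to 18 in D_MgHCF against Unt, from 12 to 17 and from 12 to 14 in D_MgHCF against DOX, from 8 to 16 and from 10 to 14 in D_MgHCF against D_DXZ, and were 0 throughout in D_DXZ against DOX. The counts of higher genes that left their reported value by over 1.5 times were 7 in DOX against Unt without DOX replicate 2, 2 in D_DXZ against Unt without Unt replicate 2, Unt replicate 3 or D_DXZ replicate 3, 10 in the same comparison and 6 in D_MgHCF against Unt without D_MgHCF replicate 3, and 8 in D_MgHCF against D_DXZ without D_DXZ replicate 2. When the other 11 libraries were left out 1 at a time, 2 genes were higher in D_MgHCF against Unt.

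With the replicate number as a block, the counts were 10 higher and 16 lower in DOX against Unt, 6 and 16 in D_DXZ against Unt, 3 and 16 in D_MgHCF against Unt, 0 and 0 in D_DXZ against DOX, 14 and 13 in D_MgHCF against DOX and 13 and 12 in D_MgHCF against D_DXZ. Correlations of the deviations of same-numbered libraries ranged from -0.39 to 0.39, and 2 of 18 exceeded 0.1. Both of these were between DOX and D_DXZ (0.390 and 0.305). With 3 libraries a group, these values cannot decide whether the numbers pair the samples. On the gene strand alone, TTTGAA was in 18, TTTAAA in 9 and CCAAT in 19 of the 34 windows. Depth limits Nek2 and Kif11 most, with as few as 16 and 41 reads in a library.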
